A study of Mus musculus with 4 samples.

Results

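The genes described here are 42 genes of mitosis, from the kinases that start it to the proteins that part the daughter cells, with their levels in macrophages that were sorted out of mouse mammary glands. They were chosen by name: a probe set belonged to the group if the probe-to-gene table gave it the symbol of a member. The array held 71 probe sets for 40 of the 42 genes, of 22690 probe sets and 12393 genes in all. No probe set was matched by symbol to Ccnb1 or Cdca8, which therefore have no values here. Of the 40 genes, 19 had several probe sets and 21 had 1.

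The study had 4 arrays, 1 for each group, and each group was 1 RNA sample. Tumor Ets2-deficient macrophages came from early-stage mammary tumors induced by PyMT, the polyoma middle T oncogene, and had 2 copies of Ets2 deleted. Tumor Ets2-expressing macrophages came from the same kind of tumor and are labelled wild type in the title but 1 copy of Ets2 in the source. Remodeling Ets2-deficient macrophages came from tumor-free remodeling glands and had 2 copies deleted, and remodeling Ets2-expressing macrophages were wild type. All mice carried YFP in their macrophages, and YFP-positive cells were sorted. The promoter that drove YFP or the deletion, the ages and the number of mice per sample are not given in the sources used here. With 1 array per group there was no replicate, no test was run, and every difference below compares a pair of RNA samples rather than a pair of conditions.

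Cells enter mitosis when Cdk1 bound to a B-type cyclin becomes active. Chromosomes then attach to spindle microtubules at their kinetochores, the spindle checkpoint holds back the anaphase-promoting complex until attachment is complete, and the cell divides at the midzone between the separated chromosomes. The RNAs of these genes are known to be made mainly in G2 and M phase and kept low in resting cells by the DREAM repressor complex, so that in a mixed sample they are commonly read as a sign of dividing cells. Tissue macrophages can be renewed from blood monocytes or by division in place.

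In both settings most mitosis genes were higher in Ets2-deficient macrophages. In tumor macrophages 29 of the 40 genes lay above 0 in the difference of Ets2-deficient minus Ets2-expressing values. This was 72.5%, against 49.8% of all 12393 genes. The median of the members was 0.45 on the log2 scale, against 0.00 over all genes. In remodeling macrophages 37 of 40 lay above 0, or 92.5%, against 54.2% of all genes. The median there was 0.67, against 0.04 over all genes. The median log2 level of the 40 genes was 7.30 on the tumor Ets2-deficient array and 6.78 on the tumor Ets2-expressing array. It was 7.24 on the remodeling Ets2-deficient array and 6.49 on the remodeling Ets2-expressing array. A larger share of dividing cells and more of these RNAs per dividing cell cannot be told apart in such samples.

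The remodeling Ets2-expressing array was the lowest of the 4 for 30 of the 40 genes, or 75%, whereas it was the lowest for 33.1% of all genes. The highest value lay on the tumor Ets2-deficient array for 19 members, or 47.5%, against 30.0% of all genes. It lay on the tumor Ets2-expressing array for 6, or 15.0%, against 26.6% of all genes. For 13 members, or 32.5%, it lay on the remodeling Ets2-deficient array, against 21.4% of all genes. For 2, or 5.0%, it lay on the remodeling Ets2-expressing array, against 22.0% of all genes.

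**Figure D1:**
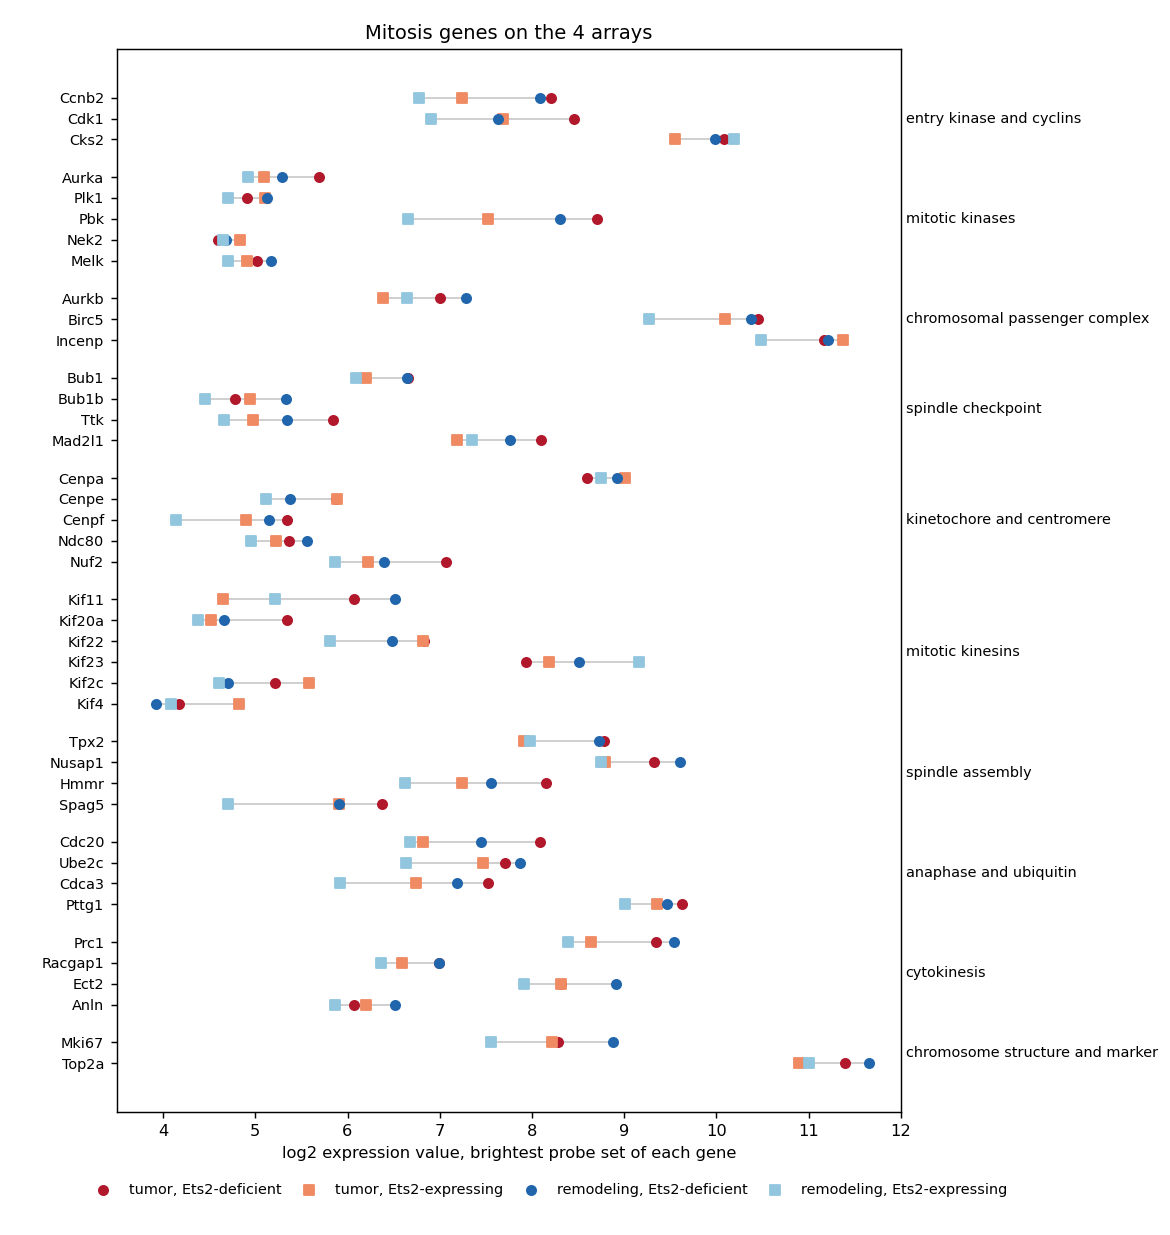
The log2 expression value of each of the 40 mitosis genes (rows, grouped by role) on the 4 arrays; circles are Ets2-deficient and squares Ets2-expressing arrays, red and orange are tumor and blue tones are remodeling, and a grey line joins the lowest and highest value of a gene. The light blue square of the remodeling Ets2-expressing array is the leftmost point for 30 of the 40 genes. Where values coincide the later marker covers the earlier one.

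A difference was counted only where the brighter of the arrays compared lay at or above its own median over all probe sets, and it was called where it was also at least 2-fold, or 1 on the log2 scale. These medians were 6.30 on the tumor Ets2-deficient array, 6.22 on the tumor Ets2-expressing array, 5.98 on the remodeling Ets2-deficient array and 6.17 on the remodeling Ets2-expressing array. In tumor macrophages 26 members were counted and 2 were called higher, or 7.69%, against 2.23% of all genes counted. None of the 26 was called lower, against 0.761% of all genes counted. In remodeling macrophages 27 members were counted and 8 were called higher, or 29.6%, against 1.31% of all genes counted. None of the 27 was called lower, against 5.17% of all genes counted. The called members Kif11 and Cdca3 were counted only through the Ets2-deficient array, where they were higher. Their remodeling Ets2-expressing values, 5.21 for Kif11 and 5.92 for Cdca3, lay below the median of that array. Bub1, Kif22, Nuf2 and Anln, which were not called, were counted in the same way. The same limit was used for all genes. The members just past the threshold and just short of it were Pbk (1.19) and Ccnb2 (0.96) in tumor macrophages, and Birc5 (1.11) and Ect2 (0.996) in remodeling macrophages.

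The only error these arrays hold is how far several bright probe sets for 1 gene differed from one another. Its standard deviation had a median over genes of 0.219 in the tumor Ets2 comparison (2401 genes) and 0.157 in the remodeling Ets2 comparison (2482 genes), and pooled values of 0.335 and 0.282 in the same comparisons. This spread is technical and says nothing of the variation between mice. Scaling moved all genes together: with each array centred on its median, the median over all genes in the remodeling Ets2 comparison was 0.227 in place of 0.037. Relative to the median of all genes, the members stood 0.45 higher in tumor and 0.63 higher in remodeling Ets2-deficient macrophages. Such centring cannot change these values. With quantile normalization they were 0.382 in tumor and 0.701 in remodeling macrophages. With the mean over all probe sets of a gene they were 0.356 in tumor and 0.586 in remodeling macrophages. Identical values on at least 2 arrays occurred for 12.9% of all probe sets and for 2 members, Ect2 and Spag5. Ets2 itself had 12.67 in tumor Ets2-deficient and 12.77 in tumor Ets2-expressing macrophages, and 12.97 in remodeling Ets2-deficient and 13.24 in remodeling Ets2-expressing macrophages. Whether its probe set lies within the deleted stretch is not given in the sources used here, so it does not check the labels, and groups are named as labelled.

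Markers of other cell types differed between the arrays. The 18 macrophage markers had median levels of 12.07 (tumor Ets2-deficient), 12.00 (tumor Ets2-expressing), 12.01 (remodeling Ets2-deficient) and 12.14 (remodeling Ets2-expressing), and 17 of 18 lay at or above the array median on each array, all but Itgam. In the tumor Ets2 comparison 16 of 17 mammary epithelial markers lay above 0 (median 0.81, with levels of 5.02 to 12.96 in Ets2-deficient and 4.24 to 12.42 in Ets2-expressing macrophages), as did 10 of 11 neutrophil markers (median 0.80, with levels of 4.25 to 12.98 in Ets2-deficient and 4.07 to 12.02 in Ets2-expressing macrophages). B cell markers lay below 0 there in 7 of 9 cases (median -0.38). In the remodeling Ets2 comparison all 10 fibroblast markers were called lower (median -2.17, with levels of 4.34 to 11.16 in Ets2-deficient and 6.63 to 12.32 in Ets2-expressing macrophages), and all 9 mast cell markers lay below 0 (median -0.79). All 9 B cell markers lay above 0 there (median 0.73, with levels of 4.39 to 10.26 in Ets2-deficient and 4.26 to 9.67 in Ets2-expressing macrophages). Mammary epithelial markers lay below 0 there in 12 of 17 cases (median -0.42), and neutrophil markers in 8 of 11 (median -0.535). The 3' minus 5' difference of Actb, a measure of RNA or cDNA shortening, was 3.54 in tumor Ets2-deficient, 3.30 in tumor Ets2-expressing, 2.96 in remodeling Ets2-deficient and 2.72 in remodeling Ets2-expressing macrophages. That of Gapdh ran the other way in tumor macrophages, with 2.27 in Ets2-deficient and 2.45 in Ets2-expressing ones, and stood at 1.8 in Ets2-deficient and 1.61 in Ets2-expressing remodeling macrophages. The part of these cell types and of RNA length in the differences of the mitosis genes was not tested.

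Promoters are shown because many genes of G2 and M phase share short elements near their start. They were taken from a fixed list of member names, those called in an Ets2 comparison first. These are the CHR (cell cycle genes homology region, searched as TTTGAA and TTCGAA), which the DREAM complex is known to bind, and the CCAAT box bound by NF-Y. Each sequence runs from 250 bases before the RefSeq start to 50 after it, on mouse build GRCm38.p6, 5′ to 3′ on the strand of the gene. Capitals mark CHR and CCAAT matches on either strand (TTCAAA and ATTGG on the opposite one) and the E2F motifs TTTCCCG and TTTGGCG. The first 5 are of members called higher in an Ets2 comparison. Plk1, a mitotic kinase that was dim on all 4 arrays, was the next name on the list with a value and a window. The called members Cdca3, Ube2c and Prc1 have windows but were not on the list and are not shown.
Ccnb2 (chr9:70421505-70421804, minus strand): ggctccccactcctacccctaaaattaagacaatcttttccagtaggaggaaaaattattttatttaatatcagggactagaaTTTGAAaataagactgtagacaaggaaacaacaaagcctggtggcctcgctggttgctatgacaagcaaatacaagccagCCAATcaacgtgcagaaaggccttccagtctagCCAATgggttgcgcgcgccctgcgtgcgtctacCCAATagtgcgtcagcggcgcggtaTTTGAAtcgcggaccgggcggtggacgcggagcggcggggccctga
Cdc20 (chr4:118437294-118437593, minus strand): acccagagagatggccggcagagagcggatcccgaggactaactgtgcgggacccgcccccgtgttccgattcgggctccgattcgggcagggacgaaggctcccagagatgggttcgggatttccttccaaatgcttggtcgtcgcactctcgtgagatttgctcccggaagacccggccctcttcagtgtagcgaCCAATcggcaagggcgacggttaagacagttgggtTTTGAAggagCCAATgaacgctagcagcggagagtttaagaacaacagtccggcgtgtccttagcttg
Birc5 (chr11:117848987-117849286, plus strand): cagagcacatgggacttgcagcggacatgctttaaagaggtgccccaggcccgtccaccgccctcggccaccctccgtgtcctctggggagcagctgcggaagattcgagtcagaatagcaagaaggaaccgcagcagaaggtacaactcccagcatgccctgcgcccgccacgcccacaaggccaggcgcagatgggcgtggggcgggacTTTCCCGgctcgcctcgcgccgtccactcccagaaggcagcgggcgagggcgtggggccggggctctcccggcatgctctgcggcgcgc
Kif11 (chr19:37376132-37376431, plus strand): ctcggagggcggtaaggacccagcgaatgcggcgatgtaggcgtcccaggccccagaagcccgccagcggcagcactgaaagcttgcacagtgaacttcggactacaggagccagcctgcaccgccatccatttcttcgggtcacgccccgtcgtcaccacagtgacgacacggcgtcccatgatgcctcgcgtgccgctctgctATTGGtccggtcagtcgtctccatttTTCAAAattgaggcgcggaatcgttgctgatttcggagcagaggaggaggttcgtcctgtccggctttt
Mki67 (chr7:135716330-135716629, minus strand): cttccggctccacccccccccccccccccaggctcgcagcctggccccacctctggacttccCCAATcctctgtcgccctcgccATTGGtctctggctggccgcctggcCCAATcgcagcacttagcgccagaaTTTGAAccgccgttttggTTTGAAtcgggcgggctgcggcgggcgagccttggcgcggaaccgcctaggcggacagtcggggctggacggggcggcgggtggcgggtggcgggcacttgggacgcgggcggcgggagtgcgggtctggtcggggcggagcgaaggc
Plk1 (chr7:122159185-122159484, plus strand): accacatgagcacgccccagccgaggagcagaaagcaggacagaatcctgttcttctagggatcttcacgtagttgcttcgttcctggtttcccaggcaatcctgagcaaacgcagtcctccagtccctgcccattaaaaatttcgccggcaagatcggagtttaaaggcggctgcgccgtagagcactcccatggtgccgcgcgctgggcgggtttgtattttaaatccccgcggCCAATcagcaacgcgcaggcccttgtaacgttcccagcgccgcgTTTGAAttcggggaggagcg

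Ccnb2 has 3 CCAAT boxes and 2 CHR matches, 167 bases before the start and 4 bases after it. Cdc20 has a CHR 18 bases before the start between 2 CCAAT boxes, and Kif11 has both elements on the opposite strand. Mki67 has 2 CHR matches, at 116 and 98 bases before the start. Birc5 holds neither element in these letters and has 1 E2F match 39 bases before the start. A window was in the RefSeq table for 37 of the 42 members, the first one listed being used for each gene. A CHR was in 27 of them, or 73.0%, against 19.4% of the windows of all 27025 genes. A CHR starting within 50 bases of the start was in 25, or 67.6%, against 5.29% of all genes. At least 2 CCAAT boxes were in 21, or 56.8%, against 12.2%, and both elements together were in 24, or 64.9%, against 7.7%. An E2F match was in 3, or 8.11%, against 4.98%.

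A CHR was present both in members that were called and in measured members that were not. Of the 8 windows of members called higher in an Ets2 comparison, 7 held a CHR (87.5%), and of the 27 windows of the other members with a value 19 did (70.4%). Matches sharing bases with another match occurred in 2 members, Cdca8 and Ube2c. These matches are letters in a window and not sites shown to be bound.

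**Figure D2:**
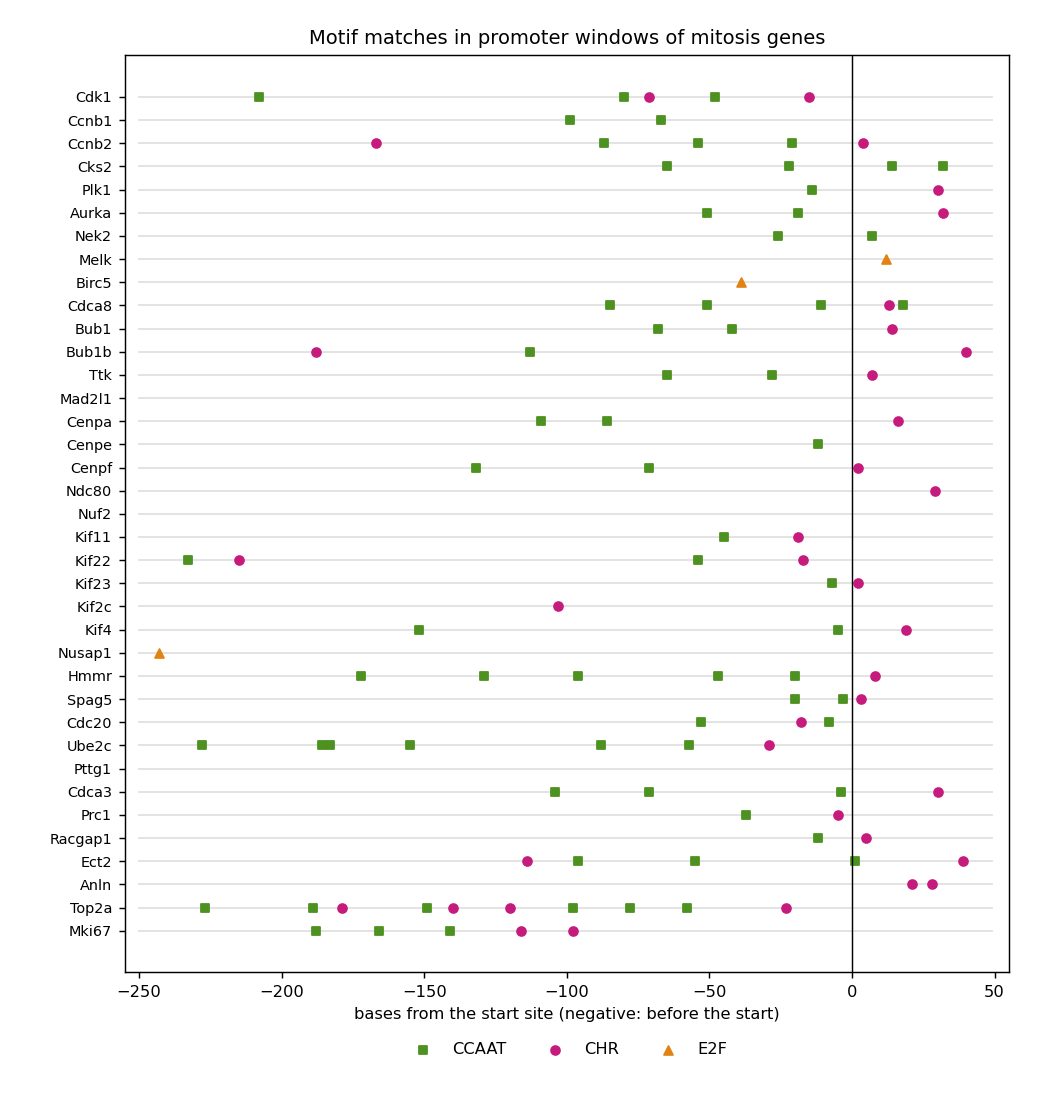
Positions of CHR (pink circles), CCAAT (green squares) and E2F (orange triangles) matches on either strand in the windows of the 37 members with one, in bases from the RefSeq start (vertical line), each marker at the first base of the match. CHR matches gather within 50 bases of the start, in 25 of 37 members, and most CCAAT boxes lie before it.

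Among the genes that start mitosis, the B-type cyclin Ccnb2, whose promoter is shown above, had 8.21 in tumor Ets2-deficient and 7.24 in tumor Ets2-expressing macrophages, and 8.09 in remodeling Ets2-deficient and 6.77 in remodeling Ets2-expressing macrophages. Both Ets2-deficient arrays lay above both Ets2-expressing arrays, by 0.96 in tumor and by 1.31, a called difference, in remodeling macrophages. Cdk1, the kinase it activates, stood at 8.45 in Ets2-deficient and 7.69 in Ets2-expressing tumor macrophages, and at 7.64 in Ets2-deficient and 6.91 in Ets2-expressing remodeling macrophages. Its Ets2 differences were nearly equal, 0.76 in tumor and 0.73 in remodeling macrophages. Cks2, a small subunit of the Cdk1 kinase, measured 10.08 (Ets2-deficient) and 9.55 (Ets2-expressing) in tumor macrophages, and 9.99 (Ets2-deficient) and 10.20 (Ets2-expressing) in remodeling macrophages. It was the only member with a positive Ets2 difference in tumor (0.53) and a negative one in remodeling macrophages (-0.21), and its second bright probe set had the same signs (0.29 in tumor and -0.07 in remodeling macrophages). With the arrays centred on their medians the remodeling differences of these probe sets were -0.02 and 0.12.

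Of the other kinases outside the passenger complex and the checkpoint only Pbk, which Cdk1 phosphorylates in mitosis, reached the array median. It had 8.71 in tumor Ets2-deficient and 7.52 in tumor Ets2-expressing macrophages, and 8.30 in remodeling Ets2-deficient and 6.65 in remodeling Ets2-expressing macrophages. Pbk was the only member called in both Ets2 comparisons, at 1.19 in tumor and 1.65 in remodeling macrophages, and it rests on 1 probe set. That is 1 of 25 members counted in both comparisons, against 2 of all 6849 genes counted in both. Plk1, which matures centrosomes and promotes mitotic entry, Aurka, the kinase of spindle poles, Nek2, which parts the centrosomes, and the kinase Melk lay below the array median on all 4 arrays, between 4.59 and 5.69. Aurka stood at 5.69 in Ets2-deficient and 5.10 in Ets2-expressing tumor macrophages, and at 5.29 in Ets2-deficient and 4.92 in Ets2-expressing remodeling macrophages. Plk1 measured 4.91 (Ets2-deficient) and 5.11 (Ets2-expressing) in tumor macrophages, and 5.13 (Ets2-deficient) and 4.70 (Ets2-expressing) in remodeling macrophages. At such levels differences were not counted, and these probe sets do not show whether the RNAs were absent.

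The chromosomal passenger complex, which corrects faulty attachments of chromosomes, was measured through 3 genes. Birc5, its survivin subunit, stood at 10.45 in Ets2-deficient and 10.09 in Ets2-expressing tumor macrophages, and at 10.38 in Ets2-deficient and 9.27 in Ets2-expressing remodeling macrophages. The remodeling Ets2-expressing value stood apart below the other 3, so that the difference was 0.36 in tumor and 1.11 in remodeling macrophages. Aurkb, the kinase of the complex, measured 7.0 (Ets2-deficient) and 6.39 (Ets2-expressing) in tumor macrophages, and 7.28 (Ets2-deficient) and 6.64 (Ets2-expressing) in remodeling macrophages. Both Ets2-deficient arrays lay above both Ets2-expressing ones, by 0.62 in tumor and 0.64 in remodeling macrophages. Incenp, its scaffold, had 11.17 in tumor Ets2-deficient and 11.37 in tumor Ets2-expressing macrophages, and 11.21 in remodeling Ets2-deficient and 10.48 in remodeling Ets2-expressing macrophages. Its bright probe sets disagreed in tumor macrophages, where 1 gave -0.20 and the other 0.80, and agreed in sign in remodeling macrophages, at 0.73 and 1.18.

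The spindle checkpoint delays anaphase until every chromosome is attached. Mad2l1, the effector that restrains Cdc20, measured 8.10 (Ets2-deficient) and 7.18 (Ets2-expressing) in tumor macrophages, and 7.76 (Ets2-deficient) and 7.35 (Ets2-expressing) in remodeling macrophages. It was higher with the Ets2-deficient label by 0.92 in tumor and 0.41 in remodeling macrophages. Bub1, a checkpoint kinase, had 6.66 in tumor Ets2-deficient and 6.20 in tumor Ets2-expressing macrophages, and 6.65 in remodeling Ets2-deficient and 6.09 in remodeling Ets2-expressing macrophages. Both Ets2-deficient arrays lay above both Ets2-expressing arrays, by 0.46 in tumor and 0.56 in remodeling macrophages. The kinase Ttk and the Cdc20 inhibitor Bub1b were below the median on all arrays. Ttk stood at 5.84 in Ets2-deficient and 4.97 in Ets2-expressing tumor macrophages, and at 5.34 in Ets2-deficient and 4.66 in Ets2-expressing remodeling macrophages. Bub1b measured 4.78 (Ets2-deficient) and 4.95 (Ets2-expressing) in tumor macrophages, and 5.34 (Ets2-deficient) and 4.45 (Ets2-expressing) in remodeling macrophages. Their uncounted differences were 0.87 for Ttk and -0.17 for Bub1b in tumor macrophages, and 0.68 and 0.88 for the same genes in remodeling macrophages.

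Kinetochore and centromere genes had differences of both signs in tumor macrophages, with a median of 0.14 over 5 genes. All 5 lay above 0 in remodeling macrophages, with a median of 0.53. Nuf2, part of the Ndc80 complex that grips microtubules, had 7.07 in tumor Ets2-deficient and 6.23 in tumor Ets2-expressing macrophages, and 6.40 in remodeling Ets2-deficient and 5.87 in remodeling Ets2-expressing macrophages. It was higher with the Ets2-deficient label by 0.84 in tumor and 0.53 in remodeling macrophages. Ndc80 itself was dim on all arrays: it stood at 5.37 in Ets2-deficient and 5.23 in Ets2-expressing tumor macrophages, and at 5.56 in Ets2-deficient and 4.95 in Ets2-expressing remodeling macrophages. Cenpa, the histone H3 variant that marks centromeres, measured 8.60 (Ets2-deficient) and 9.01 (Ets2-expressing) in tumor macrophages, and 8.92 (Ets2-deficient) and 8.75 (Ets2-expressing) in remodeling macrophages. It was lower in tumor Ets2-deficient macrophages (-0.41) and higher in remodeling ones (0.17). The kinetochore motor Cenpe and the kinetochore protein Cenpf were below the median on all arrays, and Cenpf differed by 1.01 in remodeling macrophages without being counted.

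Mitotic kinesins, the motors that move along spindle microtubules, were the role with the lowest median Ets2 differences, at -0.12 in tumor and 0.19 in remodeling macrophages over 6 genes. Kif11, which pushes the spindle poles apart, stood at 6.07 in Ets2-deficient and 4.65 in Ets2-expressing tumor macrophages, and at 6.52 in Ets2-deficient and 5.21 in Ets2-expressing remodeling macrophages. Its difference was too dim to count in tumor macrophages (1.42) and called in remodeling macrophages (1.31). Its other probe sets gave 0.60 and 0.77 in tumor and 0.50 and 0.00 in remodeling macrophages, and with the mean over its probe sets it was no longer called. Kif23, a motor of the midzone that pairs with Racgap1, had 7.94 in tumor Ets2-deficient and 8.19 in tumor Ets2-expressing macrophages, and 8.51 in remodeling Ets2-deficient and 9.16 in remodeling Ets2-expressing macrophages. It ran against most members: the remodeling Ets2-expressing array was its highest, and it was lower with the Ets2-deficient label in tumor (-0.25) and in remodeling macrophages (-0.65). Of its 2 dimmer probe sets, 1 lay lower in remodeling Ets2-deficient macrophages (-0.999) and 1 higher (0.16). Kif22, a motor on chromosome arms, measured 6.83 (Ets2-deficient) and 6.82 (Ets2-expressing) in tumor macrophages, and 6.49 (Ets2-deficient) and 5.81 (Ets2-expressing) in remodeling macrophages, so that the remodeling Ets2-expressing value was the lowest. Kif20a, a motor of cytokinesis, Kif2c, which dismantles microtubule ends, and Kif4, a motor of chromosome arms, were below the median on all arrays, between 3.92 and 5.58.

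All 4 spindle assembly genes were higher in Ets2-deficient macrophages of both settings, with median differences of 0.70 in tumor and 0.89 in remodeling macrophages. Hmmr, a microtubule-binding protein of spindle poles, measured 8.15 (Ets2-deficient) and 7.24 (Ets2-expressing) in tumor macrophages, and 7.55 (Ets2-deficient) and 6.62 (Ets2-expressing) in remodeling macrophages. Its differences of 0.91 in tumor and 0.93 in remodeling macrophages differed from each other by less than the probe set spread, and its second bright probe set gave 1.02 and 0.97 in the same settings. Tpx2, which activates Aurora A and nucleates microtubules, had 8.78 in tumor Ets2-deficient and 7.91 in tumor Ets2-expressing macrophages, and 8.73 in remodeling Ets2-deficient and 7.98 in remodeling Ets2-expressing macrophages. The Ets2-deficient arrays lay together above the Ets2-expressing arrays, with differences of 0.87 in tumor and 0.75 in remodeling macrophages, and of 1.18 and 1.04 in a second bright probe set. Nusap1, a microtubule-binding protein, also had both Ets2-deficient arrays on top: it stood at 9.32 in Ets2-deficient and 8.79 in Ets2-expressing tumor macrophages, and at 9.60 in Ets2-deficient and 8.75 in Ets2-expressing remodeling macrophages. Spag5, or astrin, measured 6.37 (Ets2-deficient) and 5.91 (Ets2-expressing) in tumor macrophages, and 5.91 (Ets2-deficient) and 4.70 (Ets2-expressing) in remodeling macrophages. Its remodeling difference of 1.21 was too dim to be counted, and the value it shared between 2 arrays is 1 of the exact ties.

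The genes of anaphase and of ubiquitin transfer held 3 of the called members. Cdc20, which activates the anaphase-promoting complex, had 8.09 in tumor Ets2-deficient and 6.81 in tumor Ets2-expressing macrophages, and 7.45 in remodeling Ets2-deficient and 6.68 in remodeling Ets2-expressing macrophages. The tumor difference of 1.28 was called, its 2 dimmer probe sets giving 0.82 and 1.07, and the remodeling difference was 0.78. Ube2c, the ubiquitin-conjugating enzyme of that complex, stood at 7.71 in Ets2-deficient and 7.47 in Ets2-expressing tumor macrophages, and at 7.87 in Ets2-deficient and 6.64 in Ets2-expressing remodeling macrophages. The remodeling Ets2-expressing array stood alone at the bottom, so that the difference was 0.24 in tumor and 1.24 in remodeling macrophages. Cdca3, an adaptor for the destruction of the Cdk1 inhibitor Wee1, measured 7.53 (Ets2-deficient) and 6.74 (Ets2-expressing) in tumor macrophages, and 7.19 (Ets2-deficient) and 5.92 (Ets2-expressing) in remodeling macrophages. It was called in remodeling macrophages (1.27), but its 2 dim probe sets gave 0.02 and -0.48 there, and the mean over probe sets was not called. Pttg1, or securin, which holds separase inactive, had 9.63 in tumor Ets2-deficient and 9.36 in tumor Ets2-expressing macrophages, and 9.47 in remodeling Ets2-deficient and 9.0 in remodeling Ets2-expressing macrophages. Its differences were 0.27 in tumor and 0.46 in remodeling macrophages, and its dimmest probe set gave 1.05 and 1.65 in the same settings.

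Cytokinesis genes were all higher in remodeling Ets2-deficient macrophages (median 0.83 over 4 genes), and had a median of 0.20 in tumor macrophages. Prc1, which bundles midzone microtubules, stood at 9.34 in Ets2-deficient and 8.64 in Ets2-expressing tumor macrophages, and at 9.54 in Ets2-deficient and 8.39 in Ets2-expressing remodeling macrophages. Its bright probe sets gave 0.71 and 0.83 in tumor macrophages, and both passed 2-fold in remodeling macrophages, at 1.15 and 1.08. Racgap1, the partner of Kif23, measured 6.99 (Ets2-deficient) and 6.59 (Ets2-expressing) in tumor macrophages, and 6.99 (Ets2-deficient) and 6.36 (Ets2-expressing) in remodeling macrophages. Unlike Kif23 it was lowest on the remodeling Ets2-expressing array, and its differences were 0.40 in tumor and 0.63 in remodeling macrophages. Ect2, the exchange factor that activates RhoA for the cleavage furrow, had an identical level of 8.32 on both tumor arrays, and 8.91 in Ets2-deficient and 7.91 in Ets2-expressing remodeling macrophages. Anln, or anillin, a scaffold of the contractile ring, had 6.07 in tumor Ets2-deficient and 6.21 in tumor Ets2-expressing macrophages, and 6.52 in remodeling Ets2-deficient and 5.86 in remodeling Ets2-expressing macrophages. Neither was higher in tumor Ets2-deficient macrophages (0.00 for Ect2, -0.13 for Anln), and both were in remodeling ones (0.996 for Ect2, 0.66 for Anln).

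The proliferation marker Mki67, a protein that coats mitotic chromosomes, measured 8.28 (Ets2-deficient) and 8.21 (Ets2-expressing) in tumor macrophages, and 8.88 (Ets2-deficient) and 7.56 (Ets2-expressing) in remodeling macrophages. The tumor arrays did not differ beyond the probe set spread (0.07), whereas the remodeling difference was called (1.32). Top2a, which disentangles sister chromatids, stood at 11.40 in Ets2-deficient and 10.89 in Ets2-expressing tumor macrophages, and at 11.65 in Ets2-deficient and 11.01 in Ets2-expressing remodeling macrophages. Both Ets2-deficient arrays lay above both Ets2-expressing ones, by 0.50 in tumor and 0.65 in remodeling macrophages. Mki67 thus showed almost none of the tumor difference seen for Cdc20, Pbk and Ccnb2, the members with the largest counted ones. Mki67 was not alone in this. Other counted members had small or negative tumor differences too, among them Ect2 (0.00), Kif22 (0.006), Kif23 (-0.25) and Cenpa (-0.41).

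The direction over the members as a whole did not rest on which probe set stood for a gene. Of all 71 probe sets 53 lay above 0 in the tumor Ets2 comparison (median 0.41) and 62 in the remodeling Ets2 comparison (median 0.53). Where a gene had at least 2 counted probe sets, these had the same sign for 6 of 7 genes in tumor macrophages, Incenp being the exception, and for 7 of 7 in remodeling macrophages. Their standard deviation within a gene was largest for Incenp in tumor (0.706) and for Pttg1 in remodeling macrophages (0.737). Dim probe sets of otherwise bright genes lay below 0 for Kif22 (-0.33), Spag5 (-0.12), Cdca3 (-0.06) and Top2a (-0.04) in tumor and for Cdca3 (-0.48), Nusap1 (-0.45) and Incenp (-0.009) in remodeling macrophages. The dim probe set of Kif23 that lay below 0 in both settings (-0.02 in tumor and -0.999 in remodeling macrophages) had the sign of its bright one.

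**Figure D3:**
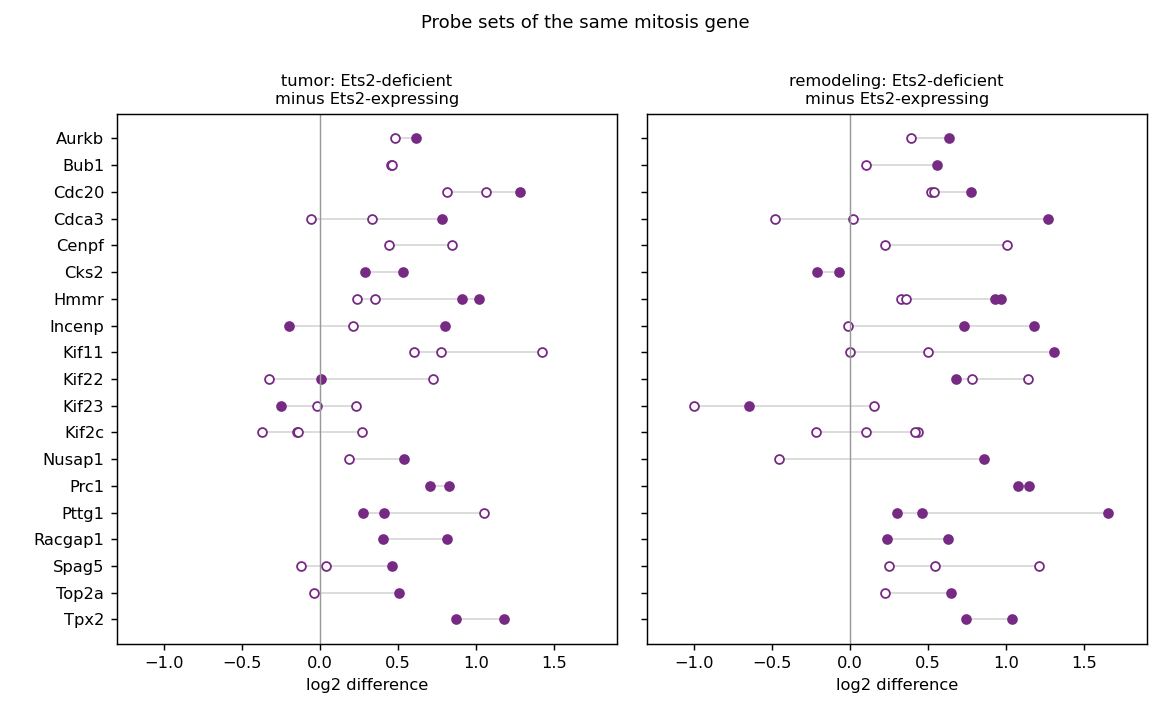
Log2 differences of Ets2-deficient minus Ets2-expressing values for every probe set of the 19 mitosis genes with several, in tumor (left) and remodeling macrophages (right); filled points are bright enough to count, open points are not, and a grey line joins the probe sets of a gene. Filled points of a gene lie on the same side of 0 except for Incenp in tumor macrophages.

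The tumor and remodeling Ets2 comparisons share no array, so their values can be set side by side. Of the 40 members 28 were higher in Ets2-deficient macrophages of both settings, or 70.0%, against 28.1% of all genes. A further 8 were lower in tumor and higher in remodeling macrophages, Cks2 alone had the opposite pair of signs, 2 (Kif23 and the dim Kif4) were lower in both, and Ect2 was tied in tumor macrophages. The difference was larger in remodeling macrophages for 29 of 40 members, or 72.5%, against 52.3% of all genes, and the median of the tumor minus the remodeling difference was -0.34, against -0.03 over all genes. With the arrays centred on their medians it was -0.61, against -0.30 over all genes, and the remodeling difference of Kif4 turned positive. Across the 40 genes the Ets2 differences had a Pearson correlation of 0.509 and a Spearman correlation of 0.453, as a description only, since the genes share the same 4 RNA samples. Over all genes these were 0.0302 and 0.0599. Among members counted in both comparisons, the tumor minus the remodeling difference was most negative for Mki67 (-1.25), Ube2c (-0.999), Ect2 (-0.996) and Incenp (-0.93, and -0.38 in its other bright probe set). It was most positive for Cks2 (0.74), Mad2l1 (0.51) and Cdc20 (0.50). Whether the settings differ was not tested.

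**Figure D4:**
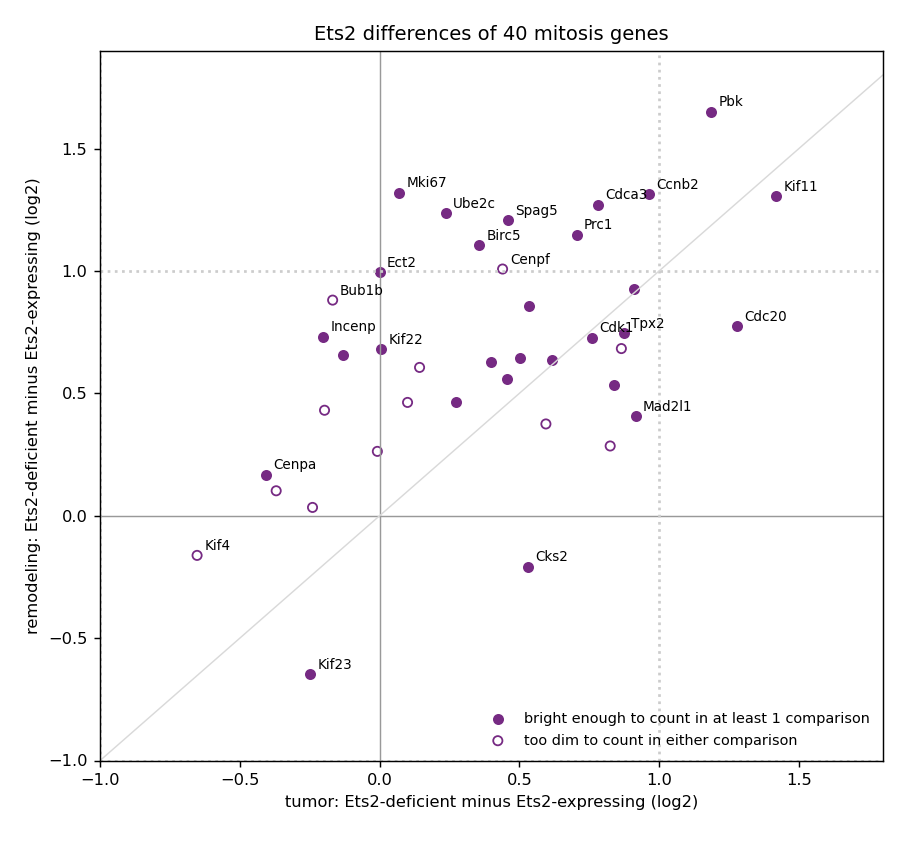
The log2 difference of Ets2-deficient minus Ets2-expressing values in tumor (horizontal) and remodeling macrophages (vertical) for the 40 mitosis genes; filled points were bright enough to count in at least 1 comparison, dotted lines mark 2-fold and the diagonal marks equal differences. The upper right quadrant holds 28 genes and 29 lie above the diagonal.

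Between settings, 33 of 40 members (82.5%) lay above 0 in tumor minus remodeling values of the Ets2-expressing samples, against 56.6% of all genes. Their median difference was 0.35, against 0.08 over all genes. Of 24 members counted, 1 was called higher, Kif22 (1.01), or 4.17%, against 6.18% of all genes counted, and none was called lower, against 5.2%. The next was Incenp (0.89). A share of calls at or below that of all genes is not a result about the members, and Kif22 lost its call when the arrays were centred on their medians or on the hybridization controls, or quantile normalized. Among the Ets2-deficient samples 23 of 40 lay above 0 with a median of 0.06, against 0.01 over all genes. This direction turned with the arrays centred on their medians, where 14 lay above 0 with a median of -0.25, against -0.30 over all genes, and on the hybridization controls, where 15 did with a median of -0.16, against -0.21 over all genes. Of 28 members counted none was called higher, against 7.61% of all genes counted, and none lower, against 1.61%. The largest counted difference was that of Cdk1 (0.82), for which both tumor arrays lay above both remodeling arrays. These comparisons share arrays with the Ets2 comparisons, and the low remodeling Ets2-expressing values enter both the remodeling Ets2 difference and the difference between settings. In the Ets2-expressing samples all 17 epithelial (median 2.63) and all 9 B cell markers (median 0.94) were higher in tumor macrophages. All 10 fibroblast markers were lower there (median -0.99). In the Ets2-deficient samples all 17 epithelial (median 4.39), 6 of 9 B cell (median 0.22) and all 10 fibroblast markers (median 1.02) were higher. The part of these cell types was not tested.

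Genes of mitosis outside the 42 showed the same signs with smaller medians. Of 64 such genes 45 (70.3%) lay above 0 in the tumor Ets2 comparison (median 0.26), against 49.8% of all genes. In the remodeling Ets2 comparison 52 (81.2%) did (median 0.33), against 54.2% of all genes. In tumor macrophages 44 were counted and 2 were called higher, the kinetochore protein Cenph (1.58) and Shcbp1 (1.03), or 4.55%, against 2.23% of all genes counted. None was called lower there, against 0.761% of all genes counted. In remodeling macrophages 42 were counted and 5 were called higher, or 11.9%, against 1.31% of all genes counted. There 1 was called lower, against 5.17% of all genes counted. Those higher were Sgo1, which protects centromeric cohesion (1.55), Cep55 of the midbody (1.25), Spc25 of the Ndc80 complex (1.25), the spindle pole protein Aspm (1.24) and the kinetochore protein Ska2 (1.11). The gene called lower was Wee1, the kinase that inhibits Cdk1 (-1.59), whose level was an identical 7.80 on the other 3 arrays and 9.40 on the remodeling Ets2-expressing array. Ccna2, the cyclin of S and G2 phase, had 9.26 in tumor Ets2-deficient and 8.72 in tumor Ets2-expressing macrophages, and 9.12 in remodeling Ets2-deficient and 8.16 in remodeling Ets2-expressing macrophages. Its arrays fell in the same order as those of Ccnb2.

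DNA replication and S phase genes were also mostly higher in both comparisons. Of 50 genes 40 (80.0%) lay above 0 in tumor macrophages (median 0.41), against 49.8% of all genes. In remodeling macrophages 41 (82.0%) did (median 0.37), against 54.2% of all genes. In tumor macrophages 2 of 41 counted were called higher, the initiation factor Mcm10 (1.52) and the polymerase epsilon subunit Pole2 (1.13), or 4.88%, against 2.23% of all genes counted. In remodeling macrophages 0 of 40 were, against 1.31% of all genes counted. None was called lower in either, against 0.761% of all genes counted in tumor and 5.17% in remodeling macrophages.

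Inhibitors and regulators of the cycle had medians near 0. Of 18 inhibitors and DREAM complex genes 7 lay above 0 in tumor (median -0.03) and 11 in remodeling macrophages (median 0.12). In tumor macrophages 15 were counted and 0 were called, against 2.23% of all genes counted called higher and 0.761% lower. In remodeling macrophages 16 were counted and 0 were called, against 1.31% of all genes counted called higher and 5.17% lower. Cdkn1a, the p21 inhibitor, stood at 11.70 in Ets2-deficient and 11.54 in Ets2-expressing tumor macrophages, and at 11.30 in Ets2-deficient and 11.65 in Ets2-expressing remodeling macrophages. Lin9, a DREAM subunit, measured 7.39 (Ets2-deficient) and 7.59 (Ets2-expressing) in tumor macrophages, and 7.58 (Ets2-deficient) and 6.77 (Ets2-expressing) in remodeling macrophages. E2f4, the repressor of that complex, was dim on all arrays, between 4.32 and 5.02. The activators of mitotic transcription Foxm1 (4.24 to 4.43) and Mybl2 (4.07 to 4.23) lay below the median on all 4 arrays. Of 11 genes of G1 cyclins and kinases 6 lay above 0 in tumor (median 0.03) and 7 in remodeling macrophages (median 0.16). In tumor macrophages 8 were counted and Cdk2 alone was called, higher (1.23), or 12.5%, against 2.23% of all genes counted. In remodeling macrophages 8 were counted and 0 were called.

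**Figure D5:**
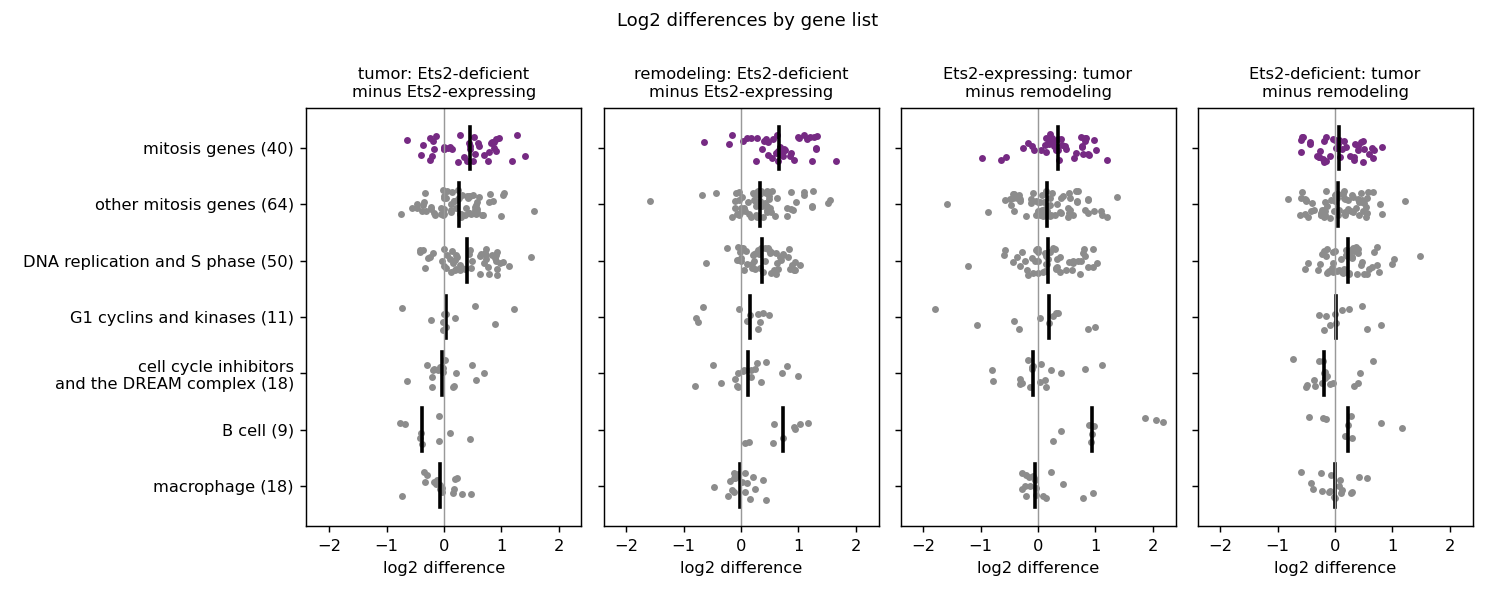
Log2 differences of the genes of each list (points, with the number of genes in brackets) in the 4 comparisons (panels), the black bar marking the median; mitosis genes are purple and other lists grey. The mitosis genes have medians of 0.45, 0.67, 0.35 and 0.06 from left to right, and the medians of the macrophage markers lie near 0 in all 4.

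The counts of called members depended on the brightness limit and, for single genes, on the probe set. Where the brighter array had to reach its 75th percentile in place of its median, fewer members were counted, 8 in tumor and 11 in remodeling macrophages. Of the 8 in tumor macrophages 0 stayed called, against 1.24% of all genes counted. Of the 11 in remodeling macrophages 3 did (Mki67, Birc5 and Prc1), against 0.542% of all genes counted. With the lowest-numbered probe set of plain type (no _a, _s or _x in its identifier), Cdc20 was no longer called in tumor macrophages, nor Kif11 and Cdca3 in remodeling macrophages.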

How the data were processed

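Macrophages sorted for YFP gave 1 RNA sample per group, and about 10 ng was amplified with the NuGEN Ovation SPIA system, biotin-labelled and hybridized to 1 Affymetrix mouse array each, per the labels. The authors deposited log2 expression values. GCOS and RMA are named, per the submitters' processing notes; their order and versions are not given in the sources used here. Values were used as deposited. The precision is limited by the number of arrays.

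Each gene took its brightest probe set, by its mean value on all 4 arrays, out of the 20380 that named exactly 1 gene (691 named several, 1555 none, and 64 were controls). Differences were counted where the brighter array reached its median and called at 2-fold, and the calculation was tested on simulated data. Full values are given for called members, at least 2 members of each role and members whose probe sets disagreed; of the other cell cycle lists, differences are given for genes called in an Ets2 comparison, and levels for 7 fixed genes. Promoter windows came from RefSeq (GRCm38.p6); Pbk had no window, and Ccnb1 was passed over as it had no value. Other scalings, probe set rules, brightness limits and a 1.5-fold threshold were tried. The members and all lists were chosen with earlier results of these data known. Python 3.11.15, pandas 2.3.3, numpy 2.4.6, scipy 1.17.1 and matplotlib 3.10.9 were used.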

Additional observations from a re-analysis of the deposited data

Results flagged for a closer look

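For 2 members the Ets2-deficient and Ets2-expressing arrays differed in opposite directions in the tumor and remodeling settings, each difference being larger than the median probe set spread of its comparison. Cenpa differed by -0.41 in tumor and by 0.17 in remodeling macrophages. Cks2 differed by 0.53 in tumor and by -0.21 in remodeling macrophages. Both remodeling values lay under the pooled probe set spread of their comparison, 0.282. With the arrays centred on their medians the remodeling difference was 0.358 for Cenpa and -0.019 for Cks2, and with the hybridization controls as the centre it was 0.367 for Cenpa and -0.009 for Cks2. The second bright probe set of Cks2, at -0.071 as deposited, turned to 0.119 and 0.129 under the same centrings. With 1 array per group, the difference between the settings was not tested.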

How the results depend on the processing

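No called member changed sign under any scaling or probe set rule tried. The centrings could not have changed one, as their shifts were smaller than the 2-fold threshold. Other members did change sign: 0 to 1 of 40 in the remodeling Ets2 comparison, 1 to 3 in the tumor Ets2 comparison, 0 to 4 between settings in the Ets2-expressing samples and 3 to 9 in the Ets2-deficient ones. In the tumor Ets2 comparison the members called higher numbered 0 of 8 counted with the 75th percentile limit and 11 of 26 at 1.5-fold (against 9.27% of all genes counted). In the remodeling Ets2 comparison they numbered 3 of 11 counted with the 75th percentile limit and 20 of 27 at 1.5-fold (against 6.53% of all genes). In the same comparison 1 was called lower at 1.5-fold (against 9.73%). Its median difference over members was 0.858 with arrays centred on their medians and 0.867 with arrays centred on the hybridization controls. In tumor minus remodeling values of the Ets2-expressing samples, 0 members were called higher under median centring, quantile normalization and hybridization control centring. The same held with the mean over probe sets, the plain probe set and the 75th percentile limit. Over all genes the shares called higher in these settings were 2.745% to 6.107%. With no limit 2 members were called higher (against 5.08% of all genes), and at 1.5-fold 9 were (against 16.9%). Those called lower numbered 1 under median centring (against 5.71% of all genes) and 1 under hybridization control centring (against 6.135%). At 1.5-fold 2 were called lower (against 13% of all genes). Among the Ets2-deficient samples, 4 of 28 were called higher and 2 lower at 1.5-fold (against 15.9% and 7.76% of all genes), and under the 2 centrings 14 (medians) and 15 (controls) members lay above 0, with median differences of -0.252 and -0.161. The median tumor minus remodeling difference of the Ets2 differences was -0.608 under median centring, against -0.298 over all genes. The centrings move every gene by a constant per array, while the cause of the other changes was not tested. Of the 8 members called in remodeling macrophages, 8 were also called under quantile normalization and 6 under each other probe set rule. The 2 centrings raised every remodeling Ets2 difference by a constant, so they could only add calls. Under each of them 11 of 27 members counted were called higher, against 2.69% (medians) and 2.73% (controls) of all genes counted. No paired analysis was possible because each group has 1 array and the labels give no replicate numbers. The 12 members below the median on all arrays have no counted difference, and without replicates the spread between mice is unknown.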

Other observations

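Of the other cell cycle genes, 3 are given here for their order across the arrays. They were chosen after their values were seen. Ccnd2, a D-type cyclin of G1 phase, had 9.71 in tumor Ets2-deficient and 8.82 in tumor Ets2-expressing macrophages, and 9.87 in remodeling Ets2-deficient and 10.62 in remodeling Ets2-expressing macrophages. The remodeling Ets2-expressing array, on which most mitosis genes were lowest, was its highest. Its tumor minus remodeling difference was -1.81 in the Ets2-expressing samples. Cdc6, which loads the replicative helicase, stood at 6.39 in Ets2-deficient and 5.67 in Ets2-expressing tumor macrophages, and at 6.65 in Ets2-deficient and 6.90 in Ets2-expressing remodeling macrophages, and had the same highest array. Psrc1, a microtubule-associated protein, measured 6.37 (Ets2-deficient) and 5.94 (Ets2-expressing) in tumor macrophages, and 5.14 (Ets2-deficient) and 4.96 (Ets2-expressing) in remodeling macrophages, and both tumor arrays lay above both remodeling arrays.

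Exact ties were more frequent in some pairs of arrays than in others. The tumor Ets2-deficient and tumor Ets2-expressing arrays held identical values for 566 of 22690 probe sets, and the remodeling Ets2-deficient and remodeling Ets2-expressing arrays for 711. Ties were most frequent between the remodeling Ets2-deficient array and each tumor array. They numbered 779 with the tumor Ets2-deficient and 775 with the tumor Ets2-expressing array. The remodeling Ets2-expressing array shared 584 values with the tumor Ets2-deficient and 539 with the tumor Ets2-expressing array.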
